A study of Homo sapiens with 6 samples.

Results

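The receptor tyrosine kinases described here are 9 cell surface receptors that are studied as growth drivers in glioma: EGFR, ERBB2, PDGFRA, PDGFRB, MET, FGFR1, AXL, IGF1R and EPHA2. The genes were chosen by name, and their probe sets by an annotation that names 1 of these genes and no other, which gave 44 of the 49293 probe sets tested and 9 of 18132 genes. No measured value entered that choice, although earlier results of these data were known. The cells were U87, a long-established line from a human glioblastoma, and messenger RNA was read on 1-colour arrays. In 1 group of 3 samples the microRNA miR-151a was overexpressed, and in the other group of 3 samples a control microRNA (miR-NC) was overexpressed, so both groups carried an introduced microRNA. Which arm of miR-151a was used, how it was introduced and for how long are not stated in the labels, and no group of untreated cells was analysed here. The labels do not tell whether the samples within a group came from separate cultures, so each p-value reflects only the scatter among these arrays, which may be technical.

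A receptor tyrosine kinase spans the cell membrane once, binds a ligand outside the cell and carries a kinase domain inside it. Ligand binding brings receptors together, they phosphorylate one another on tyrosines, and adaptor proteins dock there and pass the signal to the RAS-MAPK and PI3K-AKT pathways. In glioblastoma these receptors are known for amplification and mutation, above all of EGFR, and for acting side by side in the same cells.

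The 6 arrays had nearly the same distribution of intensities, with medians from 57.1 to 58.6, lower quartiles from 14.9 to 15.6 and upper quartiles from 222 to 229.6. Pearson correlations of log2 values over probe sets ran from 0.9980 to 0.9984 within groups and from 0.9956 to 0.9958 between groups. As a check of the cell line, 8 of 9 measured genes of a glioma line marker list, among them the intermediate filament gene VIM, the matrix gene FN1 and the hyaluronan receptor gene CD44, lay above the upper quartile of every array, and the neural stem cell filament gene NES did not. In limma 2 of the 9 fell, NES at -0.31 and the matrix gene SPARC at -0.30 on the log2 scale; their part in the results below was not tested. CD44 also stands in the list of co-receptors. Their summed intensity ran from 68760 to 70742 with miR-151a and from 68620 to 72022 with miR-NC. Of 13 markers of immune, endothelial, neuronal and epithelial cells, 0 passed in limma by the brightest probe set (2 at an unadjusted p under 0.05: ITGAM at 0.42 and PECAM1 at -0.29 on the log2 scale). Of the 3 probe sets of the myeloid gene ITGAM, however, 2 passed as higher, and the average over the 3, at 0.76, did too (adjusted p = 0.00094); its part in the results was not tested. By the brightest probe sets, the summed intensity of the 13 markers ran from 396 to 439 with miR-151a and from 416 to 424 with miR-NC. Only 3 of the 13, PTPRC, CD14 and CDH1, lay below the lower quartile of every array. The others did not, and 0 of the 13 lay above the upper quartile of every array. In a bulk sample, fewer cells of a type and less RNA per cell cannot be told apart. Precision is limited by the number of arrays. Within groups the SD on the log2 scale had a median of 0.076 over the receptor probe sets and 0.080 over all probe sets.

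Differences of the receptors between the groups were small. In a limma fit over all probe sets on the log2(intensity + 1) scale, 2 of the 44 receptor probe sets passed a Benjamini-Hochberg adjusted p of 0.05: 1 of IGF1R fell and 1 of EGFR rose. This is 4.55% of the receptor probe sets, where 14.1% of all probe sets passed, 6.81% as higher and 7.27% as lower. The log2 fold change of miR-151a over miR-NC lay within 0.2 of 0 for 43 of the 44 (97.7%) and for 81.7% of all probe sets. The median was -0.06 for the receptors and -0.01 for all probe sets. The median of the absolute log2 fold change was 0.11 for the receptor probe sets and 0.09 for all probe sets. With the brightest probe set of each gene it was 0.12 for the 9 receptors and 0.09 for all genes. The typical receptor difference was thus small but not smaller than that of the whole array. The 3 values of 1 group lay entirely apart from the 3 of the other for 17 receptor probe sets (38.6%), with miR-151a lower in 12 and higher in 5; among all probe sets the groups did not overlap for 33.8%, lower for 18.6% and higher for 15.3%. With 1 probe set per gene, the one with the highest mean, 2 of the 9 genes passed, IGF1R and EPHA2, both lower, beside 15.4% of all genes. For IGF1R this probe set had the highest mean with miR-NC but not with miR-151a. None of the 9 passed as higher in limma. PDGFRB was higher at an unadjusted p of 0.04997 in this gene-level fit, and the same probe set had 0.061 in the limma fit over all probe sets. The share of all genes at an unadjusted p under 0.05 was not computed. Averaged over all probe sets of a gene, 0 of the 9 passed in limma, where 17.7% of all genes passed and 9.34% passed as lower. At an unadjusted p under 0.05, 3 of the 9 were lower. On these averages the groups did not overlap for 5 of the 9, all lower, and for 35.7% of all genes in either direction. The shares of all genes at an unadjusted p, or lower without overlap, were not computed for these averages.

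**Figure D1:**
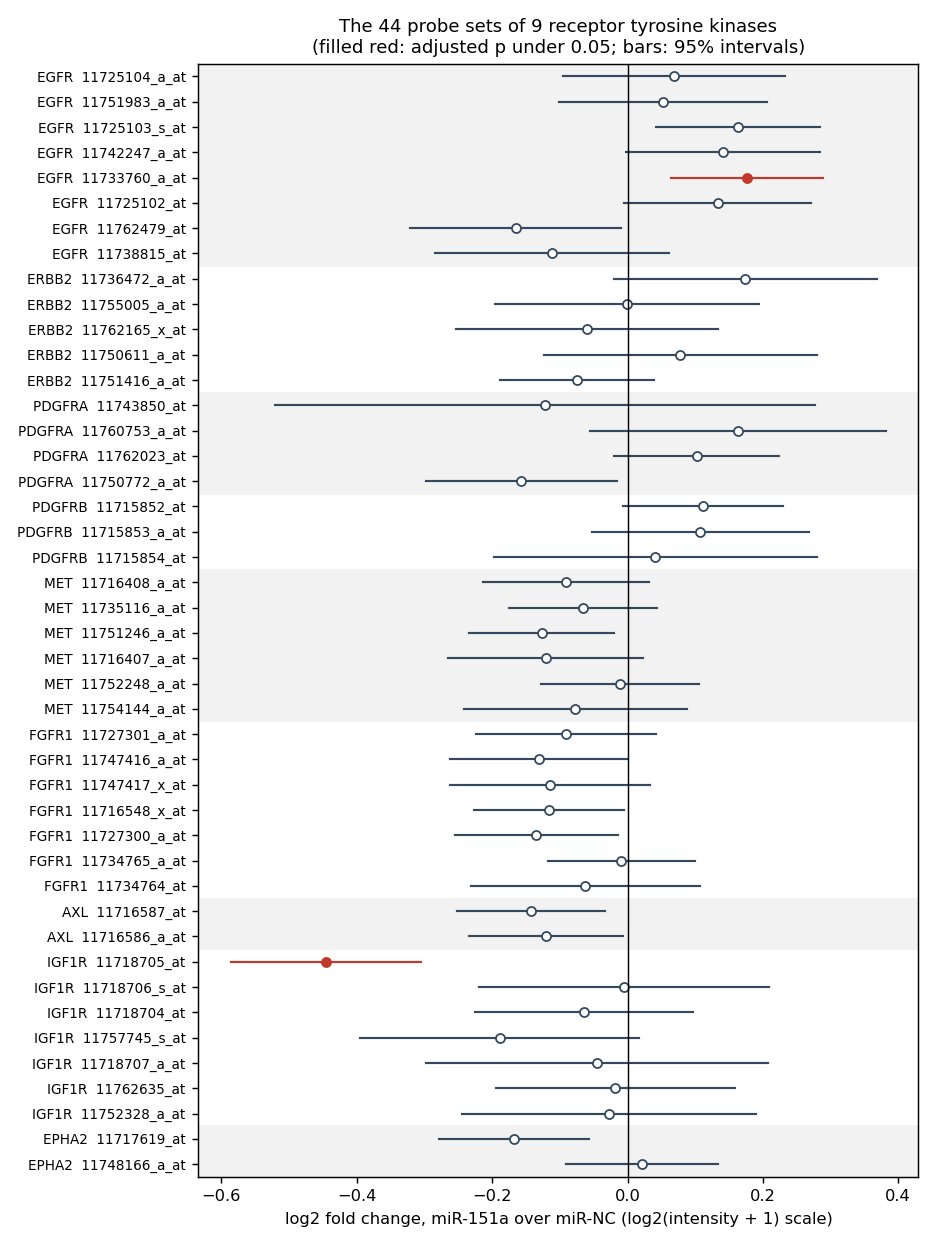
Log2 fold change (miR-151a over miR-NC, horizontal axis) of each of the 44 probe sets, named by gene and probe set and ordered from brightest to dimmest within a gene; bars are 95% intervals of the limma fit, not adjusted for the number of tests. Filled red points are the 2 probe sets past an adjusted p of 0.05, IGF1R at -0.45 and EGFR at 0.18; the probe sets of MET, FGFR1, AXL and IGF1R all lie to the left of 0.

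**Figure D2:**
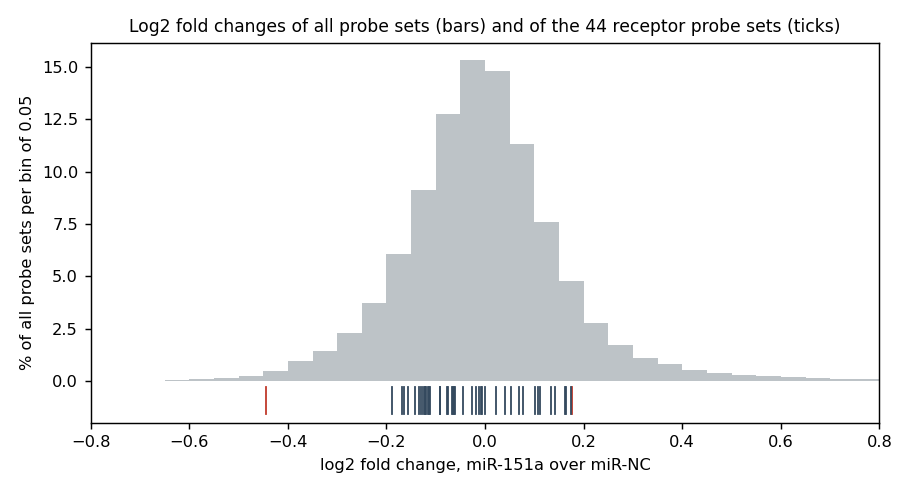
Distribution of the log2 fold change over all 49293 probe sets (grey bars, percent of probe sets per bin) and the 44 receptor probe sets (ticks; red where the adjusted p was under 0.05). The axis stops at 0.8 on either side of 0, which leaves out 0.558% of all probe sets and no receptor; 43 of the 44 ticks lie within 0.2 of 0.

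Probe sets bind with different strength, so their intensities give no order of abundance among the receptors. By the manufacturer's naming, an identifier ending in _at alone is meant for 1 transcript, _a_at for several transcripts of a gene, and _s_at and _x_at may also bind other transcripts. The brightest probe set of EGFR, MET, FGFR1 and AXL lay above the upper quartile of every array. That of EPHA2 did so on 5 of 6 arrays. For ERBB2 and PDGFRB it lay above the median and below the upper quartile of every array, for IGF1R it crossed the median, and for PDGFRA it lay near the lower quartile. In all, 7 of the 44 probe sets lay below the lower quartile of every array, where a change in the transcript may not be seen: 2 of EGFR, 1 of ERBB2, 2 of PDGFRA and 2 of IGF1R.

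**Figure D3:**
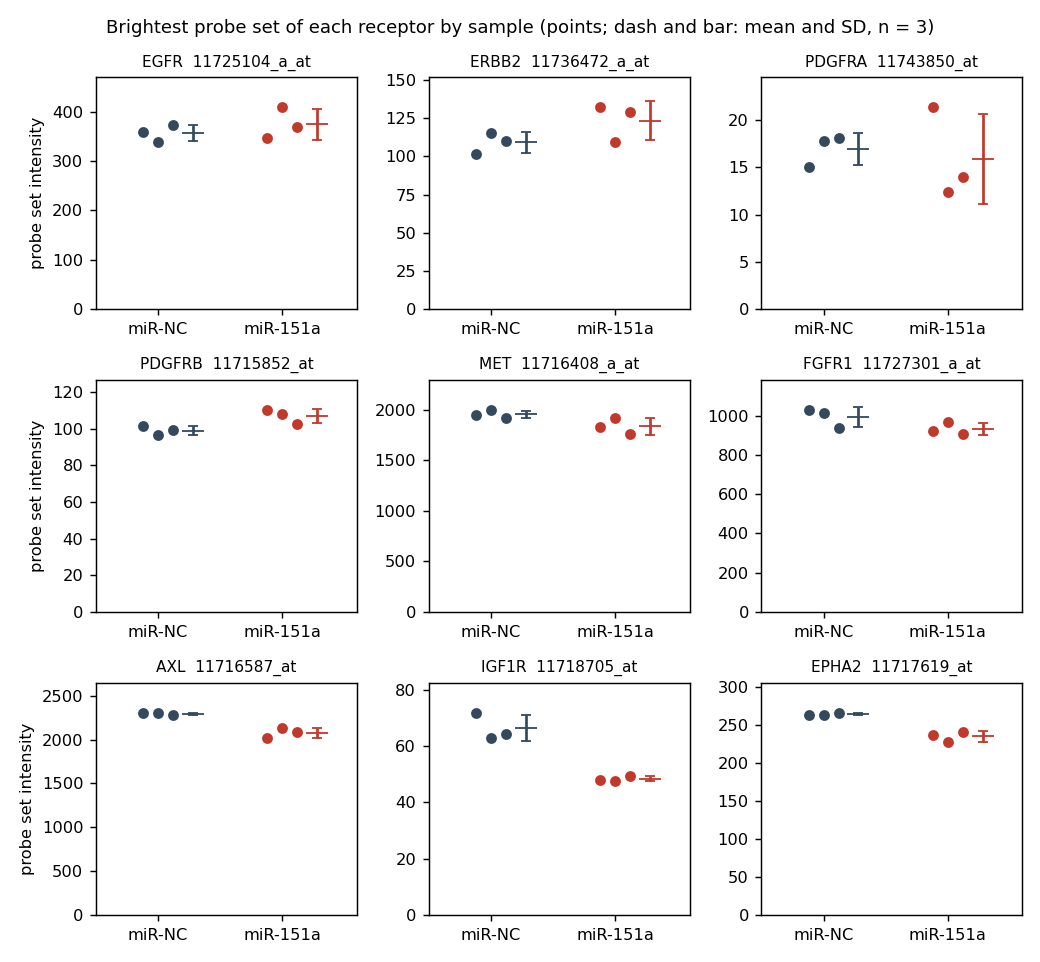
Probe set intensity (vertical axis, linear, starting at 0) in each of the 6 samples for the brightest probe set of each receptor; points are samples, and the dash with its bar is the mean and SD of 3. The miR-151a samples lie below all miR-NC samples for AXL, IGF1R and EPHA2 and above them for PDGFRB, and the groups overlap for the other receptors.

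IGF1R, the receptor for insulin-like growth factors, had the largest difference among the receptors, and it rested on 1 of its 7 probe sets. Probe set 11718705_at had intensities of 48.1, 47.7 and 49.4 with miR-151a and 71.7, 62.9 and 64.4 with miR-NC. All miR-151a samples lay below all miR-NC samples. It fell by 26.5%, with -0.45 as its log2 fold change (SE 0.06; 95% interval -0.59 to -0.30; adjusted p = 0.0032 over all probe sets in limma). Over 13 alternative analyses its log2 fold change stayed between -0.48 and -0.29 and its adjusted p between 0.00025 and 0.017, so it passed in each. Probe set 11718706_s_at, annotated with the same transcript record, had intensities of 53.6, 56.4 and 54.4 with miR-151a and 63.8, 53.9 and 48.4 with miR-NC. Here the groups overlapped, with a log2 fold change of -0.01 and a 95% interval from -0.22 to 0.21 that does not reach the value of the first probe set. The log2 ratio of these probe sets within each array was -0.15, -0.24 and -0.14 with miR-151a and 0.17, 0.22 and 0.41 with miR-NC. The difference between the groups was -0.44 (exact two-sided permutation test, p = 0.1, the smallest that 3 against 3 samples allow), and every miR-151a ratio lay below every miR-NC ratio. The numerator was picked for its lower log2 fold change, so this test gives no support beyond the values above. The other 5 probe sets of IGF1R lay between -0.19 and -0.02 with adjusted p from 0.21 to 0.91, and 1 of them, 11757745_s_at at -0.19, also had groups that did not overlap. Averaged over its 7 probe sets IGF1R was at -0.11 (adjusted p = 0.073 in limma), against -0.45 by the brightest one. Probe set 11718705_at was the brightest through the miR-NC samples, with a mean of 66.3 against 55.4 for 11718706_s_at. With miR-151a these means were 48.4 and 54.8. The gene-level value of IGF1R thus rests on a probe set picked in part by the difference it tests.

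EGFR, the epidermal growth factor receptor, had 6 brighter probe sets with positive and 2 dim ones with negative log2 fold changes. Its brightest, 11725104_a_at, had intensities of 347, 409 and 368 with miR-151a and 359, 339 and 372 with miR-NC. The groups overlapped, at 0.07 with a 95% interval from -0.10 to 0.23. They also overlapped for the second brightest, 11751983_a_at, at 0.05 (adjusted p = 0.67 in limma). The probe set past the threshold was 11733760_a_at, with 91.9, 97.8 and 95 with miR-151a and 84.6, 83.0 and 83.9 with miR-NC. Each miR-151a sample lay above each miR-NC sample. It rose by 13%, at 0.18 with a 95% interval from 0.06 to 0.29 (adjusted p = 0.048 in limma). The call was lost without any 1 of the 6 samples, where the adjusted p ran from 0.058 to 0.14 and the log2 fold change from 0.15 to 0.20. It was also lost with arrays centred on their medians (0.070), with a variance trend and robust fit (0.066) and with the replicate number as a block (0.11). Over all alternatives the adjusted p ran from 0.013 to 0.14. This probe set, 11742247_a_at and the dim 11738815_at are annotated with records of shorter EGFR transcripts, which encode secreted forms of the receptor without the kinase domain. Of these, 11742247_a_at was at 0.14 (adjusted p = 0.18). Of the 2 probe sets annotated with the record of the full-length receptor, 11725103_s_at had 202, 193 and 188 with miR-151a against 172, 169 and 179 with miR-NC, at 0.16 (adjusted p = 0.079). It passed with a pseudocount of 32 (adjusted p = 0.023), without dim probe sets (0.048) and with a variance trend and robust fit (0.034). The other, 11725102_at, was at 0.13 (adjusted p = 0.19). For these 4 probe sets of short and full-length records, all but the dim one, the groups did not overlap. Among all probe sets 15.3% were higher without overlap. The log2 fold changes of the 4 ran from 0.13 to 0.18 with standard errors from 0.05 to 0.06. Of them, 11725102_at lay below the median of every array. A difference between the forms was not tested. The dim probe sets 11762479_at and 11738815_at, below the lower quartile of every array, were at -0.16 and -0.11 with overlapping groups. Over its 8 probe sets the mean was 0.06 (95% interval -0.03 to 0.15).

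**Figure D4:**
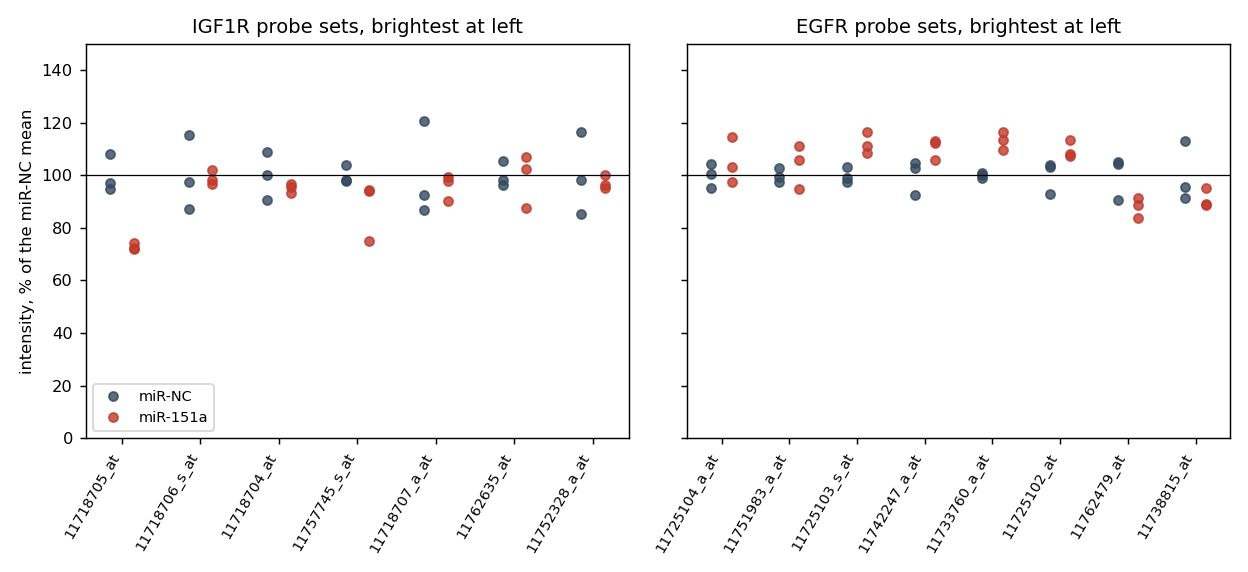
Intensity of each probe set of IGF1R (left) and EGFR (right) in each sample, as percent of that probe set's miR-NC mean (vertical axis, starting at 0); blue points are miR-NC and red points miR-151a samples, and probe sets run from the brightest at left to the dimmest at right. For IGF1R the groups lie clearly apart for the probe set at far left, 11718705_at, and mostly overlap for the others; for EGFR the red points of the third to the sixth probe set lie above the blue ones, and the spread is wide for the dim probe sets at right.

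ERBB2, a relative of EGFR that has no known ligand of its own and signals with a partner receptor, had 0 of 5 probe sets past the threshold in limma and 0 at an unadjusted p under 0.05. Its brightest probe set, 11736472_a_at, had intensities of 132, 109 and 129 with miR-151a and 102, 115 and 110 with miR-NC. With 1 miR-151a sample inside the miR-NC range, the log2 fold change was 0.17 with a 95% interval from -0.02 to 0.37 (adjusted p = 0.23). The next brightest, 11755005_a_at, had a 95% interval from -0.20 to 0.19 around a value near 0, and over the 5 probe sets the adjusted p ran from 0.23 to 0.995. The dim 11751416_a_at, below the lower quartile of every array, was at -0.07 with groups that did not overlap (adjusted p = 0.38).

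The platelet-derived growth factor receptors PDGFRA and PDGFRB lay at different parts of the arrays' range. PDGFRB was at 110, 108 and 103 with miR-151a and 101, 96.4 and 99.0 with miR-NC by its brightest probe set, 11715852_at. The groups did not overlap, at 0.11 on the log2 scale (95% interval -0.01 to 0.23; adjusted p = 0.20). Its other probe sets were at 0.11 and 0.04 with overlapping groups. PDGFRA had intensities of 21.3, 12.4 and 14 with miR-151a and 15, 17.8 and 18.1 with miR-NC by 11743850_at. The miR-151a sample of replicate 1 lay above all miR-NC samples and the other two lay below them. The log2 fold change was -0.12 with a 95% interval from -0.52 to 0.28, 0.03 without miR-151a replicate 2 and -0.34 without miR-151a replicate 1. The 4 probe sets of PDGFRA lay between -0.16 and 0.16 (adjusted p from 0.14 to 0.71), all at or near the lower quartile of the arrays, and 11750772_a_at, at -0.16, had groups that did not overlap.

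MET, the receptor of hepatocyte growth factor, had negative log2 fold changes at all 6 probe sets, from -0.13 to -0.01, and 0 passed in limma (1 at an unadjusted p under 0.05). Intensities of the brightest, 11716408_a_at, were 1825, 1923 and 1759 with miR-151a and 1948, 1995 and 1919 with miR-NC. The highest miR-151a sample just exceeded the lowest miR-NC sample, and the log2 fold change was -0.09 with a 95% interval from -0.21 to 0.03. For 11751246_a_at the values were 362, 361 and 357 with miR-151a and 397, 398 and 385 with miR-NC. The groups did not overlap, at -0.13 (95% interval -0.23 to -0.02, adjusted p = 0.11); this value passed with a pseudocount of 32 (adjusted p = 0.016) and with a variance trend and robust fit (0.037), and over all alternatives its adjusted p ran from 0.016 to 0.27. Averaged over its probe sets MET was at -0.08 (95% interval -0.17 to 0.00, adjusted p = 0.18).

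FGFR1, a receptor of fibroblast growth factors, likewise lay below 0 at all 7 probe sets, from -0.13 to -0.01, and 0 passed in limma (2 at an unadjusted p under 0.05). The brightest, 11727301_a_at, had intensities of 922, 967 and 904 with miR-151a and 1027, 1015 and 935 with miR-NC, which overlap. The largest difference was that of 11727300_a_at, with 203, 213 and 203 against 228, 218 and 234. These groups did not overlap, at -0.13 (95% interval -0.26 to -0.01, adjusted p = 0.14). With a pseudocount of 32, 11727300_a_at passed (adjusted p = 0.046), as did 11716548_x_at (0.036). With a variance trend and robust fit 11747416_a_at passed (0.047). Of the 7 probe sets, 3 had groups that did not overlap, all lower, where 18.6% of all probe sets were lower without overlap. Averaged over them FGFR1 was at -0.09 (95% interval -0.18 to -0.01, adjusted p = 0.14).

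AXL, the receptor of GAS6 and a marker of mesenchymal glioma cells, lay lower by 9.43% and 8.03% at its 2 probe sets without passing. Probe set 11716587_at had intensities of 2021, 2131 and 2082 with miR-151a and 2302, 2300 and 2280 with miR-NC. Probe set 11716586_a_at had 206, 220 and 212 with miR-151a and 233, 229 and 231 with miR-NC. In both, every miR-151a sample lay below every miR-NC sample, and the miR-NC samples lay close together. The log2 fold changes were -0.14 (95% interval -0.25 to -0.03, adjusted p = 0.088) and -0.12 (-0.23 to -0.01, adjusted p = 0.15) in limma. At gene level AXL passed in 3 of 14 alternatives: with a pseudocount of 32 (adjusted p = 0.010), without dim probe sets (0.040) and with a variance trend and robust fit (0.0010). Its adjusted p over all alternatives ran from 0.0010 to 0.17.

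EPHA2, a receptor of ephrin-A ligands on neighbouring cells, differed between its probe sets. Probe set 11717619_at had intensities of 236, 227 and 241 with miR-151a and 263, 262 and 265 with miR-NC, with no overlap. It fell by 11% at gene level, a log2 fold change of -0.17 (95% interval -0.27 to -0.06, adjusted p = 0.042 over genes), and its adjusted p over all probe sets was 0.056. The gene-level call was lost without any 1 of the 6 samples (adjusted p from 0.068 to 0.12, log2 fold change from -0.19 to -0.14). It was also lost with the replicate number as a block (0.095). Over all probe sets, 11717619_at passed in 4 of 13 alternatives, and its adjusted p ran from 0.0088 to 0.14. Probe set 11748166_a_at had 122, 123 and 124 with miR-151a and 124, 122 and 117 with miR-NC. These overlap, at 0.02 with a 95% interval from -0.09 to 0.13. Averaged over both, EPHA2 was at -0.07 (adjusted p = 0.23).

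The upstream sequences of the receptors whose probe sets passed a test are given as reference for the genes themselves. Nothing in these data measured a promoter. Windows of 250 bases before the annotated start were taken from RefSeq's promoter table (GRCh38.p14), 11 windows for 8 of the 9 genes. No window of FGFR1 was taken, which does not show that the table lacks one. The windows are written 5′ to 3′ on the gene's strand. Capitals mark GC boxes (GGGCGG or its complement CCGCCC, a motif bound by SP1-type factors, searched on both strands).
IGF1R, chr15:98648289-98648538, plus strand: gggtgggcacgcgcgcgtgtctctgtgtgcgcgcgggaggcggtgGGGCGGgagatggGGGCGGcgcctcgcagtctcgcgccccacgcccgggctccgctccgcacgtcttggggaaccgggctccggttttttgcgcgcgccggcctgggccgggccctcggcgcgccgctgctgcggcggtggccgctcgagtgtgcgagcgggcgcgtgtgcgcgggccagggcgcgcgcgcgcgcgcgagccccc
EGFR, chr7:55018767-55019016, plus strand: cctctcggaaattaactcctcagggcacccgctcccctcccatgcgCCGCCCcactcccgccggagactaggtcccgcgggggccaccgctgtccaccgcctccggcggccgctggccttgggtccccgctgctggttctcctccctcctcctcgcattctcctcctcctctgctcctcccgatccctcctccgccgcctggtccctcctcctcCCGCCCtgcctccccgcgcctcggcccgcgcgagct
EPHA2, chr1:16156070-16156319, minus strand: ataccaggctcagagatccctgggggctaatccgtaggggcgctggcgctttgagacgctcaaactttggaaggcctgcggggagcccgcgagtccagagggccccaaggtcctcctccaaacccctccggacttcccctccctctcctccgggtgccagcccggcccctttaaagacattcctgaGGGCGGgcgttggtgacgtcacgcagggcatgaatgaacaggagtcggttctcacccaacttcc
Such GC boxes were found 2 times in the window of IGF1R, 2 times in that of EGFR and once in that of EPHA2. The GC content of these windows was 81.2%, 73.6% and 63.2%. Of the 11 receptor windows, 7 held a GC box (63.6%), as did 42.6% of all 35116 windows in the table, taken without a limit by chromosome. FGFR1 is left out of the receptor windows, so the receptor shares do not cover all receptors. The TATA box (TATAAA or TTTATA) was found in 1 of the 11 (9.1%), another annotated start of EGFR, and in 10.7% of all windows. A match is a description of the letters, not a binding site.

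The ligands, adaptors and inhibitors around the receptors were read from 6 lists with 162 measured genes, each gene by its brightest probe set. In limma 13 of these genes rose and 14 fell, which is 16.7%, where 7.27% of all genes rose and 8.11% fell. Without 1 sample in turn the 13 rises became 6 to 9 and the 14 falls 6 to 9, while the genes past the threshold in the whole series went from 2788 to between 1709 and 2017. Larger differences than those of the receptors were found among ligands.

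The list of receptor ligands held 26 measured genes. Of these 6 rose and 3 fell (34.6% passed, beside 15.4% of all genes); their median was -0.03 on the log2 scale and that of all genes -0.01. FGF2, a fibroblast growth factor that activates FGFR1, had intensities of 1038, 1061 and 1043 with miR-151a and 662, 709.7 and 684 with miR-NC. It rose by 52.8% (log2 fold change 0.61, 95% interval 0.50 to 0.72, adjusted p = 0.00021), and 2 of its 3 probe sets passed. FGF18, another ligand of that family, was at 32.8, 33.4 and 33.4 against 25.7, 22.7 and 22.1 and rose by 39.9%, by 0.48 on the log2 scale and 0.23 with a pseudocount of 32. Among EGFR family ligands, NRG1, which binds receptors that pair with ERBB2, rose by 48.4% (adjusted p = 0.00054, 6 of 8 probe sets), and TGFA, a ligand of EGFR, fell by 17.1% (adjusted p = 0.013, 1 of 4 probe sets), with -0.27 by the brightest probe set and -0.17 averaged. EREG, another ligand of EGFR, was at 0.22 (adjusted p = 0.065) by its brightest probe set, while 2 of its 4 probe sets passed as higher and the average over all 4, at 0.32, did too (adjusted p = 0.0011). The ephrin-A ligands of EPHA2 moved both ways: EFNA1 rose by 31.2% with both probe sets past the threshold, EFNA3 rose by 12.6% (adjusted p = 0.036; 0.06 with adjusted p = 0.63 averaged over its 5 probe sets), and EFNA5 and EFNA4 fell by 15.2% and 18.7%. HGF, the ligand of MET, was at -0.23 (adjusted p = 0.067) by its brightest probe set, while 1 of its 4 probe sets passed and the average over all 4, at -0.24, did too (adjusted p = 0.0082). PDGFA, a platelet-derived growth factor, rose by 16.7% (adjusted p = 0.030 in limma) by 1 of 4 probe sets. Averaged over the 4 it was at 0.06 (adjusted p = 0.33). GAS6, the ligand of AXL, was at -0.11 (adjusted p = 0.26) and IGF1, a ligand of IGF1R, at 0.16 (adjusted p = 0.32). Leaving out miR-151a replicate 2, or miR-NC replicate 1, brought the 6 rises to 3. The 3 falls became 1 without miR-NC replicate 2, where TGFA had an adjusted p of 0.0501, the highest over its alternatives. FGF2, NRG1, FGF18 and EFNA5 passed in all 14 alternatives.

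Among 42 other receptor tyrosine kinases, 1 rose and 2 fell, with a median of -0.03; 7.14% passed, beside 15.4% of all genes. DDR2, a collagen receptor, rose by 15%, to 972 ± 20.3 (SD, n = 3) against 845 ± 11.3 (SD, n = 3) in the controls (adjusted p = 0.019 in limma), and 4 of its 5 probe sets passed. This rise was lost without miR-151a replicate 3 or any of the 3 miR-NC replicates (adjusted p up to 0.074). ERBB4, a neuregulin receptor, was dim, with 13 ± 0.980 (SD, n = 3) after miR-151a against 20.3 ± 3.06 (SD, n = 3) in controls, and fell by 33.7% (adjusted p = 0.0076), with 1 of 3 probe sets past the threshold; its value of -0.59 on the log2 scale was -0.21 when 32 was added to each intensity and -0.27 averaged over probe sets. EPHA5, an ephrin-A receptor, fell by 25% (adjusted p = 0.0028) by 1 of 2 probe sets and was at -0.15 (adjusted p = 0.29) averaged over both. The falls numbered 2 without each sample in turn and ran from 2 to 5 over all alternatives. INSR was at -0.25 (adjusted p = 0.071 in limma) by its brightest probe set, while 2 of its 5 probe sets passed as lower. The average over all 5, at -0.22, did too (adjusted p = 0.015). RYK, with 1 probe set at -0.17, had an adjusted p of 0.053 in the main limma fit and of 0.032 in the fit of averages.

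Of 31 genes that restrain receptors or take part in their degradation, 2 rose and 4 fell (19.4%, beside 15.4% of all genes), with a median of 0.02. CBLB, a ubiquitin ligase that marks active receptors for degradation, rose by 39.6%, to 251 ± 9.24 (SD, n = 3) against 179 ± 2.82 (SD, n = 3) in the controls (adjusted p = 0.00071 in limma). Only 1 of its 4 probe sets passed, and its log2 fold change of 0.48 was 0.20 averaged over them. RNF41, a ubiquitin ligase that acts on ERBB family receptors, rose by 28.2% (adjusted p = 0.0032, 1 of 3 probe sets), with 0.36 by the brightest probe set and 0.22 averaged. SPRY4, a feedback inhibitor of RAS-MAPK signalling, fell by 19.0% by 1 of 3 probe sets, at -0.30, and was at -0.09 (adjusted p = 0.20) averaged over them. UBASH3B, a phosphatase that slows receptor degradation, fell by 23.8% with 3 of 4 probe sets past the threshold. STAM, which sorts receptors on endosomes, fell by 11.3% (adjusted p = 0.044), a call lost without any 1 sample (0.057 to 0.15). The 4 falls became 2 when any 1 miR-151a sample or miR-NC replicate 1 was left out, and 1 when miR-NC replicate 2 was; averaged over probe sets the 2 rises became 7.

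Of 23 adaptors and docking proteins, 1 rose and 1 fell (8.7%, beside 15.4% of all genes). IRS2, which docks to the insulin and IGF1 receptors, rose by 30.5%, to 161 ± 5.67 (SD, n = 3) against 123 ± 6.47 (SD, n = 3) in the controls (adjusted p = 0.0037 in limma). Each of its 2 probe sets passed, and the gene-level call held in all 14 alternatives. SHC3, an adaptor known from neurons, fell by 14.7% (adjusted p = 0.038), a call lost without miR-151a replicate 1 or 3 or any of the miR-NC samples. Averaged over probe sets, 4 adaptors rose and 2 fell.

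Of 22 measured relay genes of the RAS-MAPK and PI3K-AKT pathways, 2 rose and 1 fell (13.6%, beside 15.4% of all genes). PIK3CD and FOXO3, a PI3K catalytic subunit and a transcription factor restrained by AKT, were at 0.19 and 0.20 (adjusted p = 0.033 and 0.047); averaged over its 4 probe sets PIK3CD was at 0.05 (adjusted p = 0.51). PIK3CB, another catalytic subunit, was at -0.19 (adjusted p = 0.041). The rises became 0 without any 1 sample other than miR-NC replicate 2, where 1 was left, and the fall became 0 without any 1 of the 6 samples.

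Of 18 sheddases and co-receptors, 1 rose and 3 fell (22.2%, beside 15.4% of all genes). LRP1, a scavenger receptor that binds beside PDGFRB, fell by 14.8% (adjusted p = 0.012), and SDC1, a heparan sulphate co-receptor, fell by 12.5% (adjusted p = 0.025), by 1 of 4 and 1 of 3 probe sets. Averaged over its probe sets LRP1 was at -0.10 (adjusted p = 0.13). ADAM10, a protease that sheds receptors such as AXL and MET, fell by 15.2% (adjusted p = 0.026) by 1 of 4 probe sets and was at -0.07 averaged over them. ADAM17, which releases EGFR ligands from the membrane, was higher by 12.7% (adjusted p = 0.045), and averaged over its probe sets it was at 0.14 (adjusted p = 0.073). This call was lost without any 1 of the 6 samples (adjusted p from 0.065 to 0.15), and the 3 falls became 1 without any 1 sample other than miR-NC replicate 2.

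**Figure D5:**
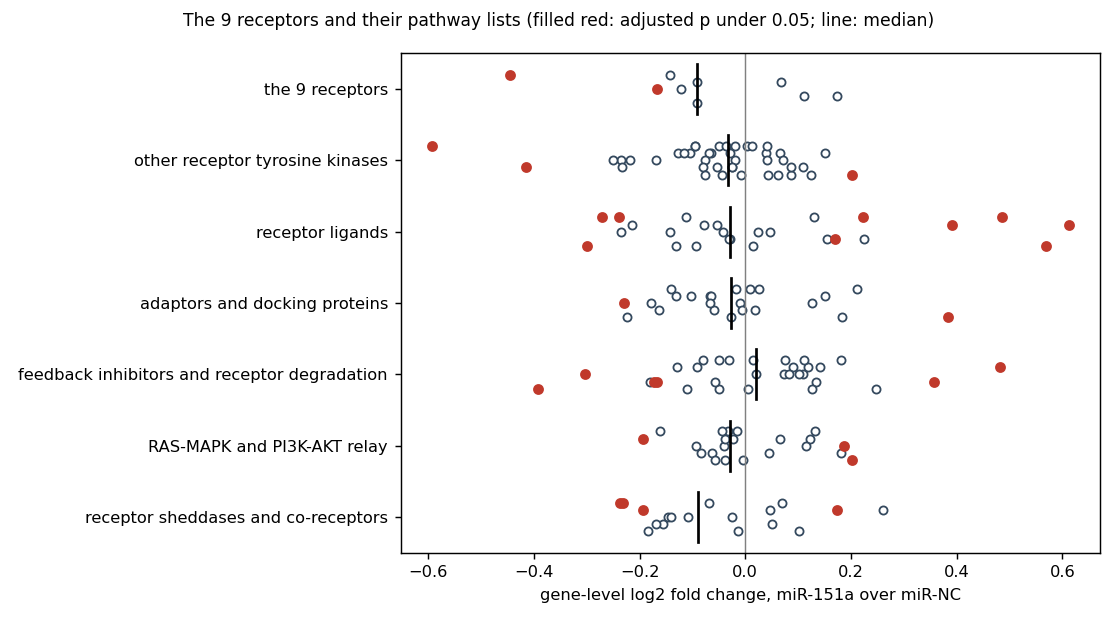
Gene-level log2 fold change (miR-151a over miR-NC, horizontal axis) of the 9 receptors and of the genes of 6 pathway lists (rows), each point 1 gene by its brightest probe set; filled red points had an adjusted p under 0.05 in limma and black lines are medians. The medians of all rows lie between -0.09 and 0.02, and the points farthest to the right are the ligands FGF2 at 0.61 and NRG1 at 0.57.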

How the data were processed

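Intensities of 6 arrays were deposited by the authors as linear probe set values, 1 column per sample. MAS5 is named, without version or role, per the submitters' processing notes; background correction, summarization and scaling are not stated there. The columns have nearly equal quantiles, and a change common to most transcripts could therefore be hidden. Samples were grouped by title. The 102 control probe sets were left out. Gene names came from the platform's annotation table, brought up to date through Entrez identifiers (44988 named 1 gene, 1832 several, 2473 none; 44961 matched RefSeq of GRCh38.p14).

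For testing, log2(intensity + 1) entered limma (version 3.58.1, under R 4.3.3; lmFit, then eBayes, 2 groups without covariates), with p-values adjusted by Benjamini-Hochberg over all probe sets or all genes, with a threshold of 0.05. Gene-level values used the probe set with the highest mean. Fold and percent changes are on that scale, which understates changes of dim probe sets; intervals are 95% intervals of single fits. An exact permutation test of 3 against 3 cannot go below p = 0.1. The fit was also run on simulated data, with larger shifts than any receptor difference, so that run does not bear on the receptor calls. Results were also computed with the mean over probe sets (gene level), without each sample, with the replicate number as a block, with array weights, with a robust fit and variance trend, without the dimmest 0.25 of probe sets by mean (for those that remain), with 32 as pseudocount, and with arrays centred or quantile normalized. Named genes are all receptors and, per list, up to 5 passing genes by smallest p. EFNA1, EFNA3, EFNA4, EREG, HGF, PDGFA, GAS6, IGF1, INSR, RYK, ITGAM, PECAM1 and the markers named by level were named after their values were seen. The receptors and lists were chosen with earlier results of these data known. Figures were drawn with matplotlib 3.10.9.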

Additional observations from a re-analysis of the deposited data

How the results depend on the processing

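Of the receptor probe sets, 1 rose and 1 fell in the reported limma fit. The higher count was 0 with median centring, 2 with a pseudocount of 32, 2 without dim probe sets, 0 with the replicate number as a block and 0 in each fit without 1 sample; the lower count was 2 with median centring, 7 with a pseudocount of 32, 5 with a variance trend and robust fit, 2 without dim probe sets and 1 in each fit without 1 sample. Of the receptor genes, 2 fell; the count was 1 with the replicate block, 0 with the mean over probe sets, 1 in each fit without 1 sample 3 with a pseudocount of 32, without dim probe sets and with a variance trend and robust fit, and 2 in the others. Of the pathway genes, 13 rose and 14 fell; the rises numbered 20 with the mean over probe sets, 22 with a variance trend and robust fit, 6 with the replicate block and 6 to 9 without 1 sample, and the falls numbered 30 with a pseudocount of 32, 31 with a variance trend and robust fit, 23 without dim probe sets, 8 with the replicate block and 6 to 9 without 1 sample. Over all genes 2788 passed, and the number moved too: 3966 with a pseudocount of 32, 4231 with a variance trend and robust fit, 3362 of 14389 without dim probe sets, 1727 with the replicate block, 3216 with the mean over probe sets, 2875 with median centring and 1709 to 2017 without 1 sample. The cause of these shifts was not tested. The labels do not say whether same-numbered samples were handled together. Deviations of same-numbered samples correlated at -0.076, -0.12 and 0.066, and those of other-numbered samples from -0.059 to 0.13. These values cannot tell whether the samples were paired.

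A sign changed in 21 values of 13 receptor results, none past the threshold in either fit. ERBB2 11755005_a_at was at 0.00069 with a pseudocount of 32. ERBB2 11755005_a_at ran from -0.087 to 0.088 without 1 sample. IGF1R 11718706_s_at was at 0.0069 with array weights. IGF1R 11718706_s_at ran from -0.097 to 0.10 without 1 sample. PDGFRB 11715854_at ran from -0.065 to 0.14 without 1 sample. MET 11752248_a_at ran from -0.038 to 0.0076 without 1 sample. PDGFRA 11743850_at ran from -0.34 to 0.029 without 1 sample. At gene level PDGFRA ran from -0.34 to 0.029 without 1 sample. ERBB2 11762165_x_at ran from -0.12 to 0.033 without 1 sample. IGF1R 11762635_at ran from -0.072 to 0.061 without 1 sample. FGFR1 11734765_a_at ran from -0.024 to 0.0095 without 1 sample. IGF1R 11752328_a_at ran from -0.12 to 0.077 without 1 sample. FGFR1 11734764_at ran from -0.12 to 0.015 without 1 sample. IGF1R 11718707_a_at ran from -0.13 to 0.089 without 1 sample. EPHA2 11748166_a_at ran from -0.0026 to 0.042 without 1 sample.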
